A study of Drosophila melanogaster with 4 samples.

Results

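The glutathione S-transferase genes of Drosophila melanogaster were followed in RNA from midguts of flies given uracil or left untreated. The family was taken as every gene whose FlyBase symbol is Gst followed by D, E, O, S, T or Z and a number. That rule found 35 genes among the 13585 gene IDs of the deposited table. They comprise 11 Delta genes, 14 Epsilon genes and 10 genes of other classes, of which 3 are Omega, 1 is Sigma, 4 are Theta and 2 are Zeta. The poly(A) RNA libraries came from uracil-treated midguts at 16 h and at 2 h and from control midguts, with no treatment, at 16 h and at 2 h. Each of the 4 groups had 1 library. The sources used here do not give the uracil dose, the number of guts behind a library, or the strain, sex and age of the flies. Uracil, a building block of RNA, is shed by certain bacteria in the gut, and its best known effect on the fly gut lining is the release of reactive oxygen species.

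Glutathione S-transferases join the tripeptide glutathione to electrophilic compounds, such as products of lipid peroxidation and many insecticides, which makes them more soluble and easier to export. Delta and Epsilon are the classes best known from insects and include enzymes tied to insecticide metabolism, while Omega, Sigma, Theta and Zeta members also occur in mammals. The midgut is among the tissues where insects handle chemicals taken in with food. Flies lack a glutathione reductase, and thioredoxin reductase does the recycling of oxidised glutathione through thioredoxin.

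The uracil 16 h library held 8841796 reads in genes and the untreated 16 h library 16588143. At 2 h the uracil library held 8990316 and the untreated library 8500378. Levels are normalized counts, that is, reads divided by a size for the whole library, and 1 read was worth 0.0584 to 0.127 of them. Brackets after a fold hold its exact 95% counting interval, which covers counting error only. No group was repeated, so a difference between single libraries has no replicate check and no test. Genes were counted as apart when their ratio, after adding 1.02 normalized counts to each value, reached 2-fold. The midgut label was set against 17 enterocyte and digestive genes found in the table, all of which had reads in every library. Their summed level was 31195 normalized counts for uracil 16 h and 29758 for untreated 16 h, and at 2 h it was 45805 with uracil and 50476 untreated.

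Of the 35 genes, 30 had a mean over the libraries of at least 1 CPM, a read count scaled to library size, and entered the comparisons. These were 9 Delta genes, 11 Epsilon genes and all 10 others. The other 5 were GstD6, GstD11, GstE2, GstE4 and GstE14. GstE4 had 2 to 8 reads in a library and GstE2 had 2 to 4. GstD6 had 1 read in each of 3 libraries and none for uracil 16 h. GstD11 had 1 read in each uracil library and none in the untreated ones. GstE14, known from the ecdysteroid-making tissues, had 2 reads for uracil 16 h and none elsewhere. A count of 0 here allows up to 3 reads, or between 0.175 and 0.38 normalized counts depending on the library.

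Levels of different genes were compared per kilobase of annotated exon. GstT4, a Theta gene, had the highest mean over the libraries at 554 normalized counts per kb, ahead of the Omega gene GstO3 at 409. Next came GstD1 at 385, GstE3 at 317, GstE7 at 246 and GstE12 at 245. GstD1, whose product can break down DDT and whose promoter is widely used in oxidative stress reporters, stood far above the rest of its class, where GstD9 was next at 67.4. GstS1, the lone Sigma gene and known for its abundance in flight muscle, had 67.8, and GstZ1 was the higher of the Zeta genes, which encode enzymes of tyrosine breakdown, at 6.13. Of the Delta genes, 6 lay below 10 per kb, so the class rests on few members, whereas 8 of the 14 Epsilon genes lay above 50.

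**Figure D1:**
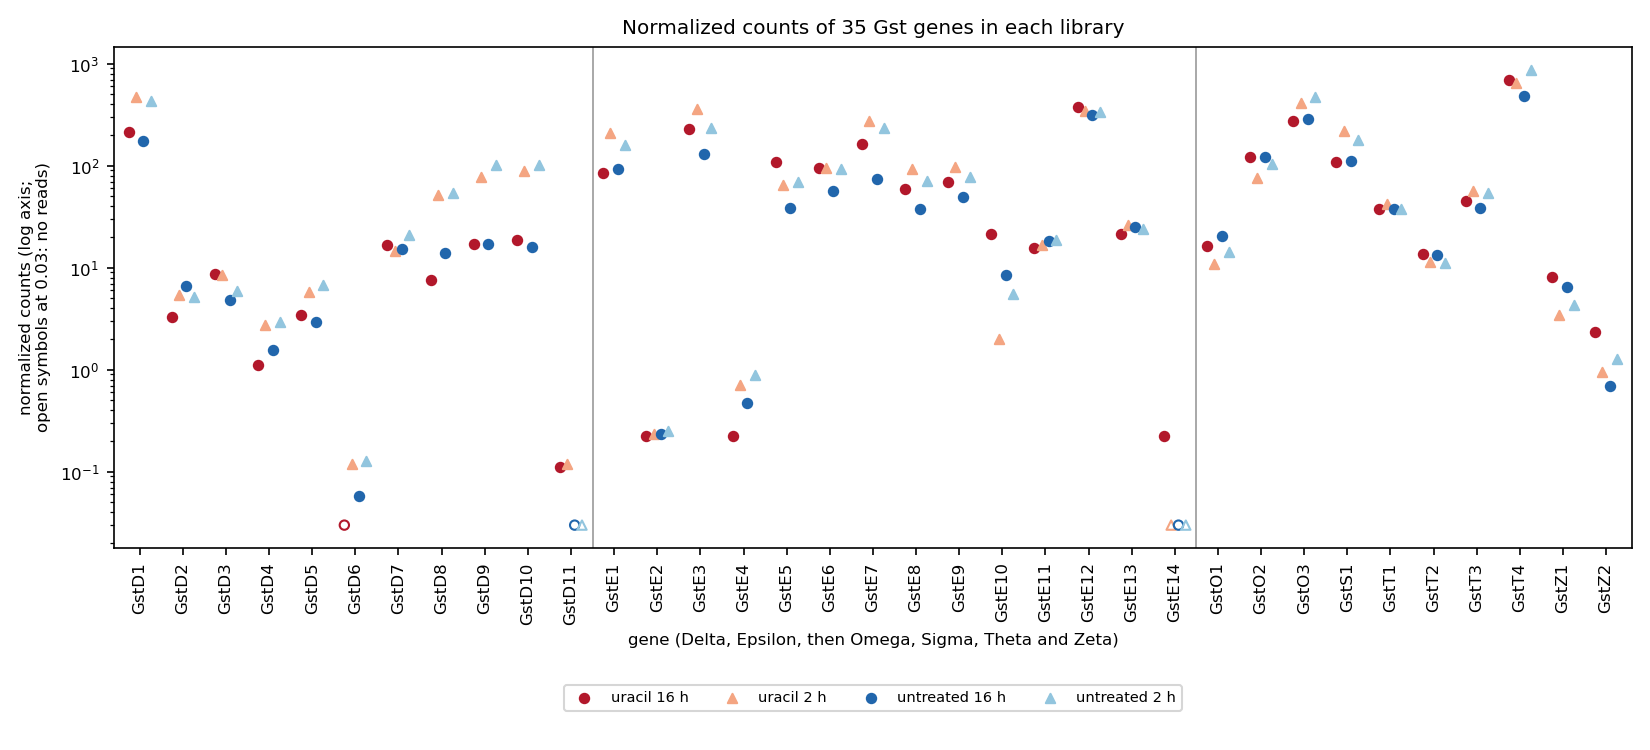
Normalized counts (log axis) of each of the 35 Gst genes in the 4 libraries, 1 point per library, with open symbols at 0.03 where a library had no reads. GstD8, GstD9 and GstD10 sit lower in both 16 h libraries (circles) than in both 2 h libraries (triangles), and GstE10 is highest for uracil 16 h and lowest for uracil 2 h.

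Summed over the family, the Gst genes took 0.291% of reads in genes for uracil 16 h (0.287% to 0.294%) and 0.23% for untreated 16 h (0.227% to 0.232%). At 2 h they took 0.359% for uracil (0.355% to 0.362%) and 0.353% for untreated guts (0.349% to 0.357%). The Epsilon sum was higher with uracil at both times, at 1247 normalized counts for uracil 16 h against 846 untreated, 1.47-fold (1.44 to 1.51), and at 1592 for uracil 2 h against 1330 untreated, 1.2-fold (1.17 to 1.23). The Delta sum differed less between treatments, at 293 for uracil 16 h against 253 untreated and at 729 for uracil 2 h against 731 untreated. Without its top gene GstD1 the Delta sum was 76.5 for uracil 16 h against 78.2 untreated, and 255 for uracil 2 h against 299 untreated. The sum over the other classes stood at 1313 for uracil 16 h against 1125 untreated, and at 1487 for uracil 2 h against 1747 untreated. Without its top gene GstT4 this sum was 626 for uracil 16 h against 638 untreated, and 833 for uracil 2 h against 874 untreated. Per kilobase, Delta genes made up 12.5% of the family's level for uracil 16 h against 22.2% for uracil 2 h, and 14.3% for untreated 16 h against 22.8% for untreated 2 h. In guts, which hold many cell types, fewer cells of a type and less RNA per cell cannot be told apart.

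**Figure D2:**
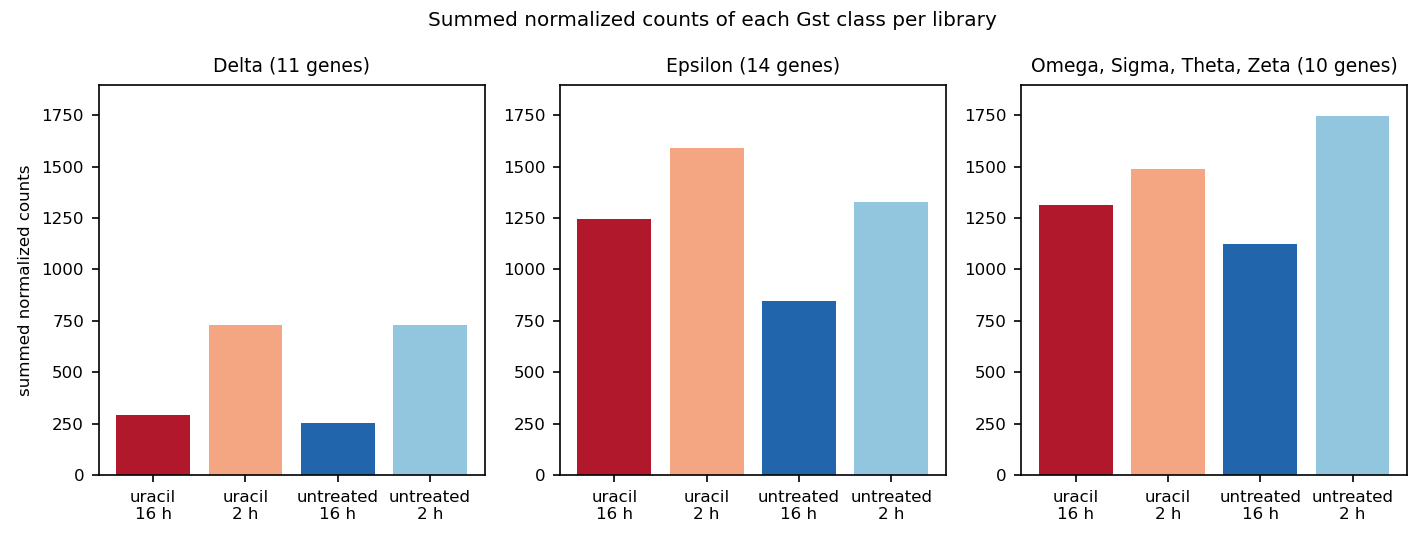
Summed normalized counts of the Delta, Epsilon and other Gst genes in each library (bars, 1 library each, no error bar because no group was repeated). The Delta bars at 16 h reach 293 with uracil and 253 untreated, and those at 2 h reach 729 with uracil and 731 untreated.

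The comparison of uracil with untreated guts at 16 h asks which family members differ at the later sampling time. Of the 30 genes measured, 3 reached 2-fold higher levels with uracil and none was 2-fold lower. Over all 8560 genes measured, 7.66% were 2-fold higher and 0.993% 2-fold lower, so the family's 3 of 30 is near the background. All 3 were Epsilon genes, of which 11 were measured. The median log2 ratio was 0.63 over the Epsilon genes, 0.13 over the Delta genes and 0.004 over the others, beside -0.02 over all genes. The Epsilon median is 0.37 when the 3 genes with few reads are kept, and the median of the others turns to -0.01 when libraries are scaled to the column total.

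GstE5 was at 110 normalized counts for uracil 16 h and 38.9 for untreated 16 h, 2.83-fold higher (2.56 to 3.12). At 2 h it was at 64.6 with uracil and 69.1 untreated, so its uracil 16 h library was the highest of the 4 and its untreated 16 h library the lowest. GstE7 was at 164 for uracil 16 h and 74.9 for untreated 16 h, 2.19-fold higher (2.03 to 2.36), and at 278 for uracil 2 h and 235 for untreated 2 h. Both 2 h libraries stood above both 16 h libraries for this gene. GstE10 was at 21.6 for uracil 16 h and 8.53 for untreated 16 h, 2.54-fold higher (2.04 to 3.16). In the same libraries 10 of 13 Malpighian tubule markers and 6 of 11 visceral muscle markers were 2-fold higher with uracil. The tubule markers summed to 1490 for uracil 16 h and 910 for untreated 16 h, and the muscle markers to 3607 for uracil 16 h and 1909 for untreated 16 h. Their part in the Epsilon values was not tested.

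These genes belong to a tandem array of 10 Epsilon genes, GstE10 and GstE1 to GstE9, which lies on chromosome 2R between 18396638 and 18409835 of the BDGP6.54 annotation. Of the 8 array genes measured, 7 were above untreated at 16 h, with a median log2 ratio of 0.78. Besides the 3 above, GstE3 was 1.76-fold higher (1.65 to 1.86), GstE6 1.71-fold (1.55 to 1.87), GstE8 1.57-fold (1.4 to 1.76) and GstE9 1.39-fold (1.25 to 1.54). GstE1 stood apart from its neighbours at 85.8 for uracil 16 h and 92.4 for untreated 16 h. The 3 measured Epsilon genes outside the array had ratios nearer to 1. GstE12 was 1.2-fold higher with uracil (1.15 to 1.25), and the ratios of GstE11 and GstE13 were 0.855 (0.696 to 1.05) and 0.857 (0.72 to 1.02).

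The Delta genes spread to both sides at 16 h. GstD3 had the highest ratio of the class at 8.65 for uracil 16 h and 4.85 for untreated 16 h, 1.78-fold (1.29 to 2.46). GstD2 had the lowest at 3.33 for uracil 16 h and 6.6 for untreated 16 h, a ratio of 0.504 (0.325 to 0.76), and it was at 5.43 for uracil 2 h and 5.2 for untreated 2 h. GstD8 followed at 7.54 for uracil 16 h and 13.8 for untreated 16 h, a ratio of 0.545 (0.41 to 0.716). GstD1 was 1.24-fold higher (1.17 to 1.31) at 216 for uracil 16 h and 175 for untreated 16 h, and GstD9 and GstD10 had intervals that include 1. Among the other classes GstT4 was at 687 for uracil 16 h and 487 for untreated 16 h, 1.41-fold higher (1.36 to 1.46). GstZ2 was at 2.33 for uracil 16 h and 0.701 for untreated 16 h, 3.32-fold higher (1.56 to 7.41) on 21 and 12 reads, and it did not reach 2-fold after the added 1.02. At 2 h it was at 0.945 with uracil and 1.27 untreated. The Omega genes GstO1, GstO2 and GstO3, whose class is known for reducing dehydroascorbate, had ratios of 0.791, 0.995 and 0.95. GstS1 was at 109 for uracil 16 h and 111 for untreated 16 h. GstT1, lowest of its class here and highest at 2 h, was at 37.3 for uracil 16 h and 37.9 for untreated 16 h, and at 2 h it was at 42.5 with uracil and 37.8 untreated.

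At 2 h, the earlier sampling time, uracil and untreated guts lay closer together. Of the 30 genes, 1 was at least 2-fold lower and none higher, where 1.51% of all genes were 2-fold lower and 1.5% 2-fold higher. The gene was GstE10, at 2.01 for uracil 2 h and 5.58 for untreated 2 h, a ratio of 0.36 (0.193 to 0.643) from 17 and 44 reads. The median log2 ratio was 0.1 over the Epsilon genes, -0.08 over the Delta genes and -0.2 over the others, beside 0.01 over all genes. The highest Epsilon ratio was that of GstE3, at 360 for uracil 2 h and 237 for untreated 2 h, 1.52-fold (1.43 to 1.61). GstE1 followed at 211 for uracil 2 h and 159 for untreated 2 h, 1.33-fold (1.24 to 1.43), then GstE8 at 1.31-fold (1.18 to 1.47) and GstE9 at 1.27-fold (1.14 to 1.41). In the Delta class GstD7 was lowest at 14.7 for uracil 2 h and 21.2 for untreated 2 h, a ratio of 0.692 (0.544 to 0.878). GstD3 was highest at 8.51 for uracil 2 h and 5.96 for untreated 2 h with an interval that includes 1 (0.975 to 2.11). GstT4 was at 654 for uracil 2 h and 873 for untreated 2 h, a ratio of 0.749 (0.723 to 0.776). GstO2 was at 76.6 for uracil 2 h and 104 for untreated 2 h, a ratio of 0.736 (0.663 to 0.817). GstS1 was at 219 for uracil 2 h and 178 for untreated 2 h, 1.23-fold higher (1.14 to 1.32). At this time 5 of 13 Malpighian tubule markers were 2-fold lower with uracil and none higher, with sums of 594 for uracil 2 h and 809 for untreated 2 h.

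**Figure D3:**
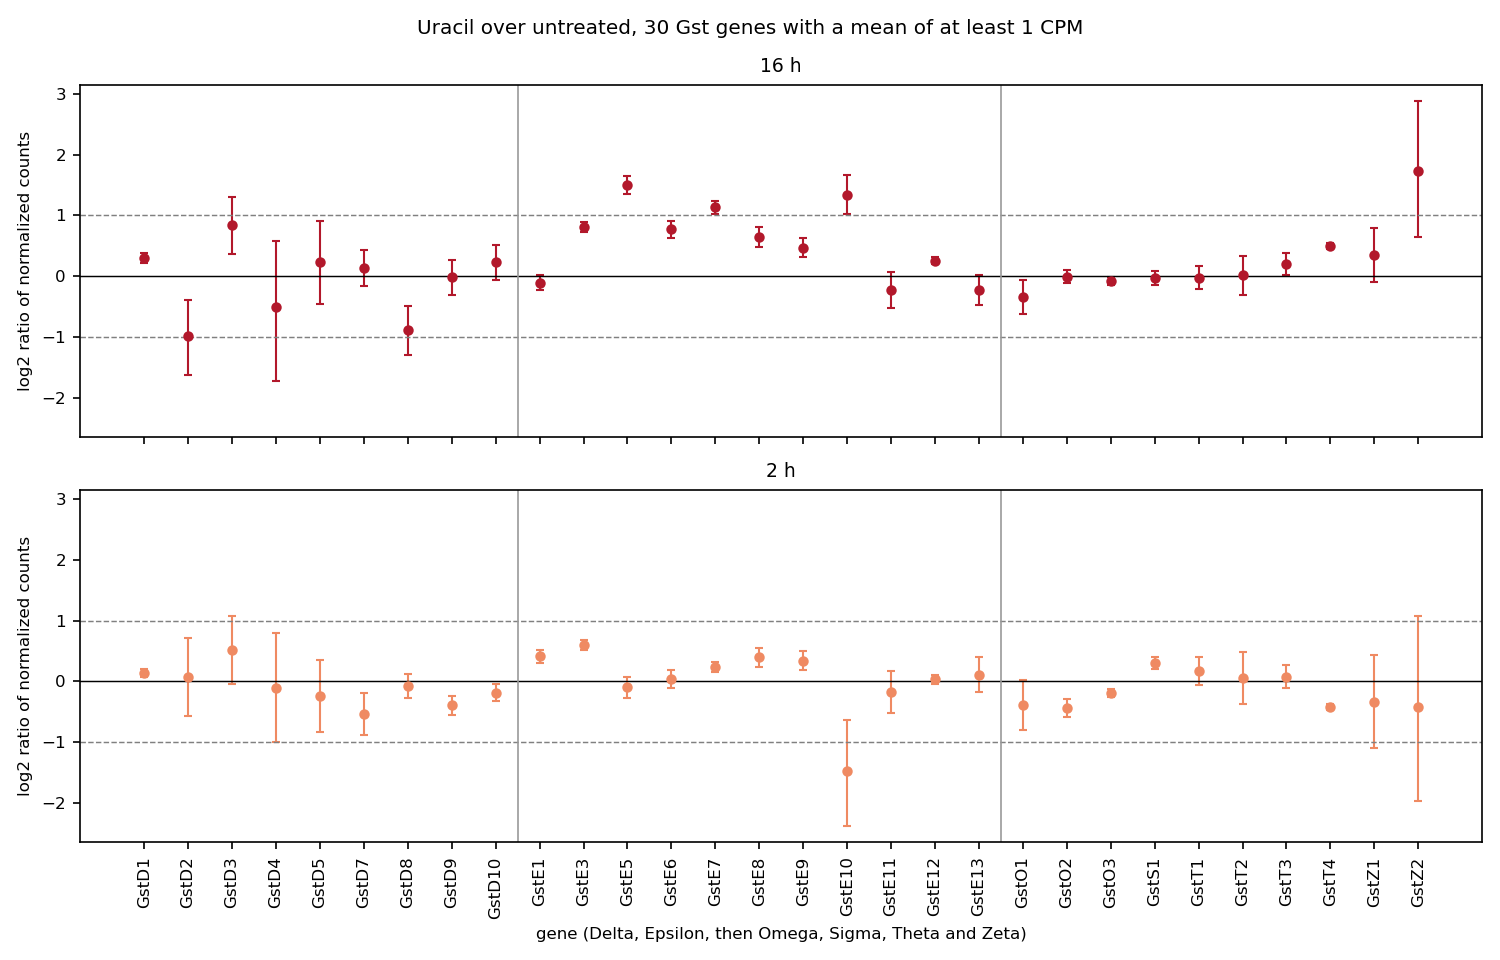
Log2 ratio of normalized counts, uracil over untreated, for the 30 measured Gst genes at 16 h (upper panel) and 2 h (lower panel). Points are single-library ratios without an added count, bars are exact 95% counting intervals, and dashed lines mark 2-fold. In the upper panel GstE3 and GstE5 to GstE10 lie above 0, and in the lower panel GstE10 is the sole point below the lower dashed line.

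An effect of uracil common to the 2 times was tested with limma in an additive model of treatment and time over all 8560 genes. No Gst gene passed an adjusted p of 0.05, which 0.035% of all genes did. At an unadjusted p under 0.05 there were 3 members, against 4.58% of all genes. With edgeR's quasi-likelihood test the counts were 0 adjusted, against 0.0584% of all genes, and 3 unadjusted, against 4.98%. The lowest p was that of GstE3, with a difference of 0.70 in log2 units, uracil over untreated (SE 0.192, adjusted p = 0.73 by limma). GstE7 had 0.68 (SE 0.26) and GstE8 0.51 (SE 0.211), each with a limma adjusted p of 0.999. The model has 1 residual degree of freedom, which is how far the uracil effect disagrees between the times. To it limma adds a prior of 5.33 degrees of freedom drawn from all genes. Its p-values thus rest more on the spread over all genes than on the gene's own, and do not stand in for replicate guts.

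GstE3, GstE6, GstE7, GstE8, GstE9 and GstE12 were above untreated at both times, 6 of 11 Epsilon genes measured. The same was so for 2 of 9 Delta genes and 2 of 10 others, and for 24.2% of all genes. At 2 h the counting intervals of GstE6 (0.929 to 1.14) and GstE12 (0.972 to 1.08) included 1, as did those of GstD3, GstT2 and GstT3. The uracil ratio was larger at 16 h than at 2 h for 21 of 30 members, against 46.7% of all genes. The uracil ratio of GstT4 lay above 1 at 16 h and below 1 at 2 h with counting intervals that exclude 1, and so did that of GstE10.

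The comparison of 16 h with 2 h asks how the family's mRNAs differ between the sampling times, within each treatment. The clearest pattern was in the Delta class, where GstD8, GstD9 and GstD10 fell in both treatments. Of the 30 genes, 5 were at least 2-fold lower at 16 h in uracil-treated guts and 5 in untreated guts, where 2.9% and 2.84% of all genes were. In uracil-treated guts 2 were 2-fold higher, against 9.38% of all genes, and in untreated guts 0 were, against 2.8%. Those 2 were GstE10 and GstZ1, both with few reads, and the count is 1 with a pseudocount worth 5 CPM and 0 among genes averaging 10 CPM or more. GstD1, GstD8, GstD9 and GstD10 were 2-fold lower in both treatments, 4 of 30 members, a pattern shown by 1% of all genes. Without the size rule, 16 members were lower at 16 h in both treatments, among them 6 of 9 Delta, 7 of 11 Epsilon and 3 of 10 other genes, against 29.8% of all genes. GstE6 and GstE11 are among these and turn to higher in at least 1 treatment when libraries are scaled to the column total.

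GstD10 was at 18.6 for uracil 16 h against 89.2 for uracil 2 h, 4.79-fold lower (4.05 to 5.69). In untreated guts it was at 15.9 at 16 h against 101 at 2 h, 6.38-fold lower (5.55 to 7.35). Both 16 h libraries stood below both 2 h libraries, and the time effect common to both treatments was -2.40 in log2 units (SE 0.226, limma adjusted p = 0.0183). GstD9 was at 17 for uracil 16 h against 76.8 for uracil 2 h, 4.53-fold lower (3.79 to 5.43). In untreated guts it was at 17.2 at 16 h against 101 at 2 h, 5.89-fold lower (5.14 to 6.75), with a shared effect of -2.30 (SE 0.225, limma adjusted p = 0.0194). The times did not overlap for this gene either. How many of all genes separate by time in this way was not counted, so for each gene named here it is a description only.

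GstD8 was at 7.54 for uracil 16 h against 51.4 for uracil 2 h, 6.82-fold lower (5.27 to 8.94). In untreated guts it was at 13.8 at 16 h against 54.4 at 2 h, 3.93-fold lower (3.35 to 4.63). Its shared effect was -2.26 (SE 0.264, limma adjusted p = 0.0324), and both 16 h libraries were again the lowest. With edgeR its adjusted p was 0.0619, while GstD9 and GstD10 had an edgeR adjusted p of 0.0337 each. The 3 members compare with 0.421% of all genes that passed the limma threshold for time, 36 in number, and with 0.234% that passed it lower at 16 h. At an unadjusted p under 0.05 there were 14 members by limma and 14 by edgeR, against 16% and 15.7% of all genes, and edgeR called 0.304% of all genes after adjustment. With limma run without a mean-dependent trend no gene passed, and the limma adjusted p was 0.0821 for GstD9 and GstD10 and 0.109 for GstD8.

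GstD1 was at 216 for uracil 16 h against 474 for uracil 2 h, 2.19-fold lower (2.08 to 2.32). In untreated guts it was at 175 at 16 h against 432 at 2 h, 2.47-fold lower (2.35 to 2.59). The libraries separated by time here too, but the shared effect of -1.21 (SE 0.186, limma adjusted p = 0.072) did not pass. The other 5 measured Delta genes were low in all libraries. GstD4 and GstD5 were lower at 16 h in both treatments, GstD5 at 3.44 for uracil 16 h against 5.79 for uracil 2 h and at 2.92 for untreated 16 h against 6.85 for untreated 2 h. GstD7 was at 16.7 for uracil 16 h against 14.7 for uracil 2 h and at 15.2 for untreated 16 h against 21.2 for untreated 2 h. Of the 17 enterocyte and digestive genes, 3 were 2-fold lower and 3 were 2-fold higher at 16 h than at 2 h in uracil-treated guts, and 7 were lower and 0 higher in untreated guts, with median log2 ratios of -0.51 and -0.91. Between treatments, 4 of them were 2-fold higher for uracil 16 h than for untreated 16 h, and 2 were 2-fold lower for uracil 2 h than for untreated 2 h. Their part in the Delta values was not tested.

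Epsilon array genes were mostly lower at 16 h without passing the test. GstE7 was at 74.9 for untreated 16 h against 235 for untreated 2 h, 3.14-fold lower (2.92 to 3.38), and 1.69-fold lower in uracil-treated guts (1.58 to 1.81). Its shared effect was -1.20 (SE 0.26, limma adjusted p = 0.114). GstE1 was at 85.8 for uracil 16 h against 211 for uracil 2 h, 2.46-fold lower (2.26 to 2.68), and 1.72-fold lower in untreated guts (1.6 to 1.85), with a limma adjusted p of 0.11. GstE5 was lower at 16 h in untreated guts, a ratio of 0.563 (0.502 to 0.632), and higher in uracil-treated guts, 1.7-fold (1.53 to 1.89). GstE10 was 10.8-fold higher at 16 h with uracil (6.55 to 18.9) and 1.53-fold higher untreated (1.08 to 2.19), a shared effect of 1.72 with the largest SE of the family (0.544, limma adjusted p = 0.211). Among the Malpighian tubule markers, 10 of 13 were 2-fold higher at 16 h in uracil-treated guts and 1 of 13 in untreated guts. GstE11, GstE12 and GstE13, outside the array, stayed within 1.21-fold of their 2 h levels in both treatments.

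The Omega, Sigma, Theta and Zeta genes lay on both sides. GstO1 and GstO2 were higher at 16 h, by 1.48-fold and 1.58-fold with uracil and by 1.44-fold and 1.17-fold untreated, whereas GstO3 was lower, with ratios of 0.664 (0.63 to 0.699) with uracil and 0.612 (0.587 to 0.639) untreated. GstS1 was lower at 16 h, at 109 against 219 with uracil and 111 against 178 untreated, a shared effect of -0.84 (SE 0.203, limma adjusted p = 0.14). GstT4 was at 687 against 654 with uracil and at 487 against 873 untreated, so that its untreated 2 h library was the highest and its untreated 16 h library the lowest. GstZ1 was 2.4-fold higher at 16 h with uracil (1.54 to 3.82), at 8.21 against 3.43 from 74 and 29 reads, and was at 6.43 against 4.31 untreated. None of these passed the limma threshold.

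**Figure D4:**
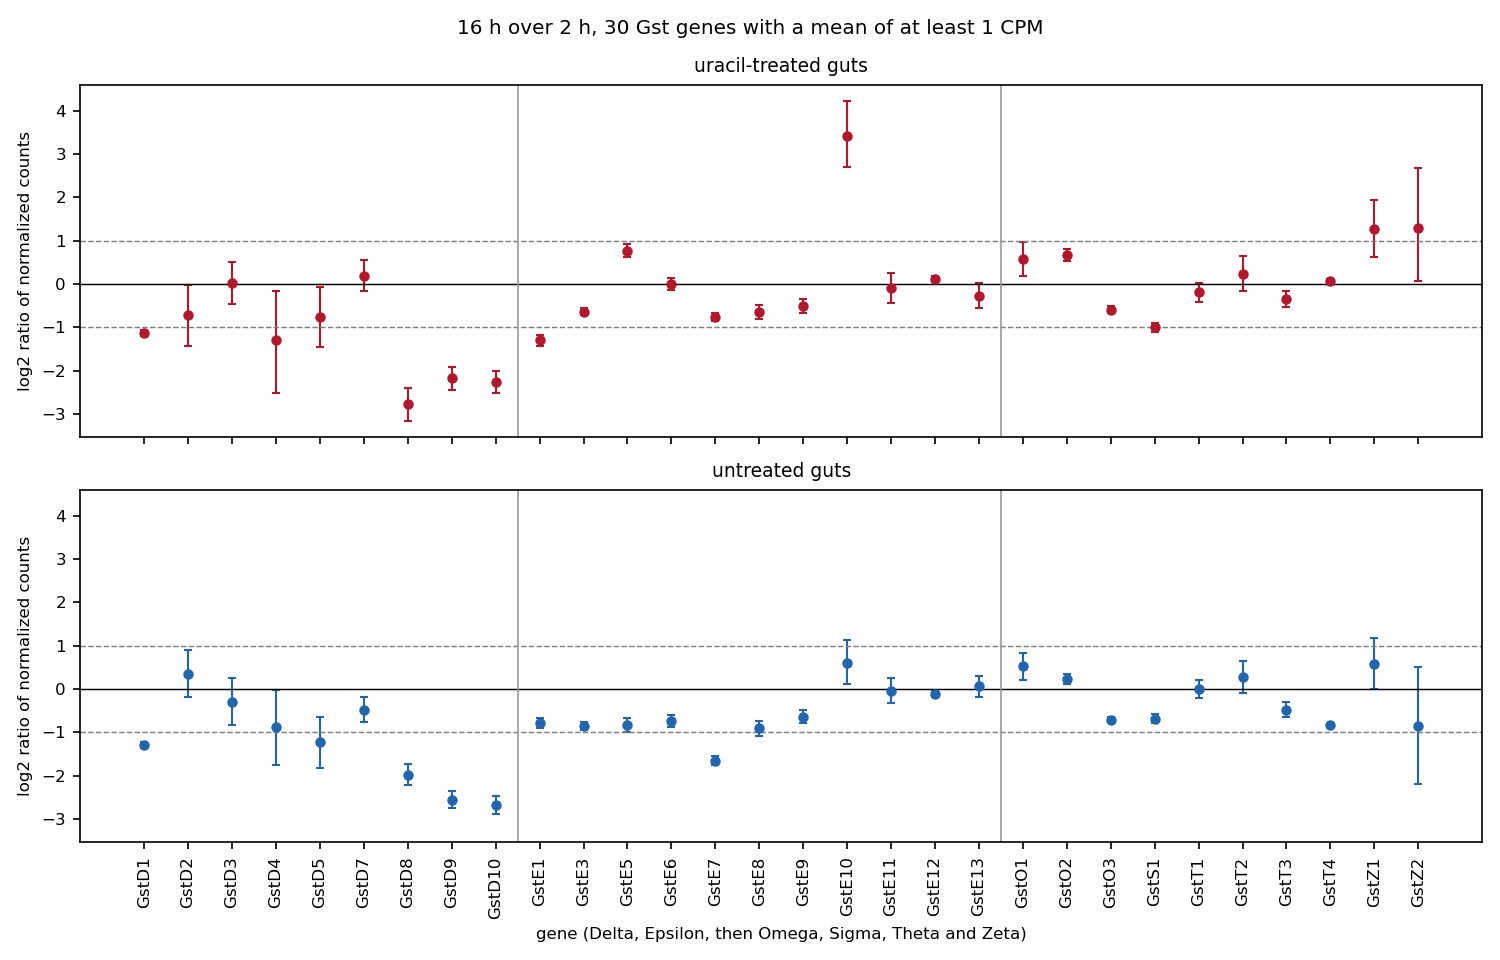
Log2 ratio of normalized counts, 16 h over 2 h, for the 30 measured Gst genes in uracil-treated (upper panel) and untreated guts (lower panel), with exact 95% counting intervals and dashed lines at 2-fold. GstD1, GstD8, GstD9 and GstD10 lie below the lower dashed line in both panels, and GstE10 lies highest in the upper panel.

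Position within the arrays was then set beside these values. All 11 Delta genes lie in 1 cluster on chromosome 3R between 12364776 and 12385624 of the BDGP6.54 annotation. GstD10, GstD9 and GstD1 are neighbours on the minus strand, at one end, GstD10 at 12364776 to 12365735 and GstD9 at 12366163 to 12367564. GstD8 (12380008 to 12380815) lies toward the other end on the plus strand, past the lower expressed genes GstD2 to GstD7. Within 10 kb, 3 genes outside the family were measured around the Delta array. Their 16 h over 2 h log2 ratios were -0.01 to 2.07 with uracil and 0.22 to 1.01 untreated. None was 2-fold lower, which is near the shares of all genes, 2.9% with uracil and 2.84% untreated. In the Epsilon array GstE10 is at 18396638 to 18398519 on the minus strand. Outside the arrays, GstT4 is on chromosome X at 13404749 to 13409323, GstS1 on 2R at 17093246 to 17099501 and GstE12 on 2R at 24766718 to 24768172. Around the Epsilon array 5 were measured, with uracil over untreated log2 ratios at 16 h of -0.54 to -0.04. Their 16 h over 2 h log2 ratios were -0.74 to 0.09 with uracil and -1.40 to 0.63 untreated. Of these 5 genes, 1 was 2-fold lower, in untreated guts, and none was 2-fold higher. For the 3 genes around the Delta array, the uracil over untreated log2 ratios at 16 h were -0.36 to 1.60. The immune adaptor gene imd shares 40 exon bases with GstE9 on the other strand and was at 43.0 for uracil 16 h and 44.3 for untreated 16 h. GstE10 and GstE1 share 20 exon bases on opposite strands and GstT2 shares 223 with CG12926. The strand setting of the counting is not given in the sources used here, so reads in such overlaps cannot be assigned, and reads that match several similar family members could be split between them or dropped, which was not tested.

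**Figure D5:**
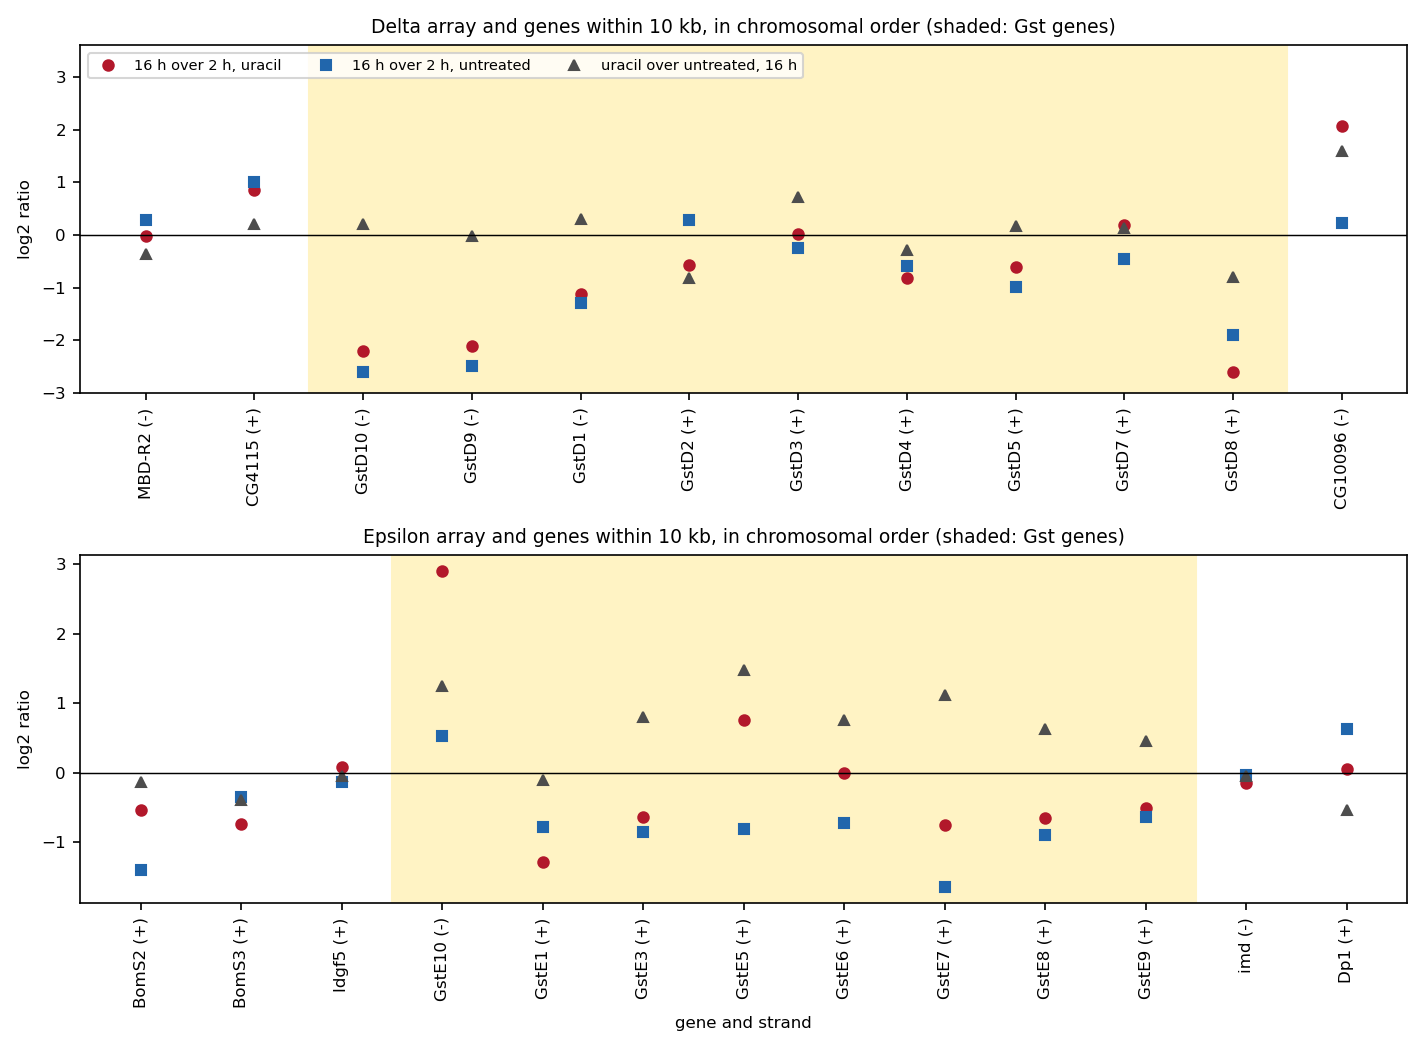
Log2 ratios of measured genes in the Delta array (upper panel) and Epsilon array (lower panel) and within 10 kb, in chromosomal order with the strand in brackets. Shading marks Gst genes, circles and squares 16 h over 2 h in uracil-treated and untreated guts, and triangles uracil over untreated at 16 h. GstD8, GstD9 and GstD10 are at or below -1.90 in both treatments, and triangles lie above 0 for 7 of the 8 Epsilon array genes.

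Genes that make, recycle or work with glutathione were followed as lists. Of 13 measured genes of glutathione synthesis, recycling and peroxide removal, 2 were 2-fold higher with uracil at 16 h and 0 lower, and at 2 h 1 was higher and 0 lower, with median log2 ratios of 0.18 and 0.17. Over all genes 7.66% were higher and 0.993% lower at 16 h, and 1.5% and 1.51% at 2 h, with medians of -0.02 and 0.01. Gclc and Gclm, the subunits of the rate-limiting enzyme of glutathione synthesis, were at 687 and 304 for uracil 16 h and at 606 and 328 for untreated 16 h. Ggt-1, a gamma-glutamyl transpeptidase that splits glutathione, was at 84.6 for uracil 16 h and 15.5 for untreated 16 h, 5.45-fold higher (4.73 to 6.29). At 2 h it was at 10.5 with uracil and 20.8 untreated, a ratio of 0.506 (0.386 to 0.658), so that it lay on the same sides as GstE10. The second gene higher at 16 h, and the gene higher at 2 h, was the germline thioredoxin dhd, at 36.5 for uracil 16 h and 1.34 for untreated 16 h and at 114 for uracil 2 h and 23.7 for untreated 2 h. Female germline markers lay on the same side, 2-fold higher with uracil in 6 of 6 measured genes at 16 h and 4 of 6 at 2 h.

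Nrf2 and Keap1, which control antioxidant genes, were followed in a list that also held maf-S, fs(1)K10, Hr96 and EcR. Of the 6 measured genes of this list, none was 2-fold apart between uracil and untreated guts, a count near the shares of all genes given above. The Nrf2 gene cnc was at 641 for uracil 16 h and 602 for untreated 16 h, and at 2 h it was at 581 with uracil and 625 untreated. Its inhibitor gene Keap1 was at 53.9 for uracil 16 h and 59.0 for untreated 16 h, and at 2 h it was at 74.2 with uracil and 81.0 untreated. None of 9 conjugate export pump genes and none of 5 other transferase-like genes was 2-fold apart between treatments, with medians at 16 h of 0.24 and -0.19 beside -0.02 over all genes. The pump gene CG9270 came nearest at 9.43 for uracil 16 h and 4.61 for untreated 16 h, 2.04-fold (1.49 to 2.81) before the added 1.02. At 2 h it was at 1.77 with uracil and 3.68 untreated, a ratio of 0.482 (0.24 to 0.929). The microsomal transferase gene Mgstl was at 64.8 for uracil 16 h and 104 for untreated 16 h.

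Markers of the remaining tissues were counted in the same libraries. None of the 13 Malpighian tubule and 11 visceral muscle markers found in the table was at 0 in any library, and the muscle markers summed to 2770 for uracil 2 h and 1723 for untreated 2 h, with 1 of 11 genes 2-fold higher. Female germline genes summed to 61.4 for uracil 16 h and 3.15 for untreated 16 h, and to 43.6 for uracil 2 h and 12.1 for untreated 2 h, with pgc, Vm26Aa and Cp36 at 0 in at least 1 library. Of 10 hemocyte markers 1 was 2-fold higher and 3 were lower with uracil at 16 h, and 2 were lower at 2 h. Their sums were 2112 for uracil 16 h and 1743 for untreated 16 h, and 2308 for uracil 2 h and 2385 for untreated 2 h, with He at 0 in at least 1 library. Most of each sum was the ferritin gene Fer1HCH. It was at 1827 for uracil 16 h and 1505 for untreated 16 h, and at 2 h at 2083 with uracil and 2127 untreated. The median log2 ratio of the 10 hemocyte markers, uracil over untreated, was -0.54 at 16 h and -0.44 at 2 h. Of 8 fat body markers 2 were 2-fold higher with uracil at 16 h and none was apart at 2 h. They summed to 1004 for uracil 16 h and 1249 for untreated 16 h, and to 1102 for uracil 2 h and 1202 for untreated 2 h, with Lsp1alpha, Lsp1beta, Lsp2, Fbp1 and Fbp2 at 0 in at least 1 library. Of 10 neuron and photoreceptor markers 3 were 2-fold lower with uracil at 16 h and none was apart at 2 h. Those 3 were the photoreceptor genes ninaE, Arr1 and Arr2, at 22.5, 8.76 and 13 for untreated 16 h. In every other library, both 2 h libraries included, each was at 0.665 or less. The 10 markers summed to 53.2 for uracil 16 h and 101 for untreated 16 h, and to 41.5 in each 2 h library, with ninaE and Arr1 at 0 in at least 1 library. The part of these tissues in the Gst values was not tested.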

How the data were processed

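Poly(A) RNA was sequenced as Illumina TruSeq libraries, per the labels' protocols. Trimming with cutadapt 1.0, alignment tools TopHat2 2.0.5 and Bowtie, and HTSeq and edgeR appear in the submitters' processing notes. Settings, strand, genome build and annotation, not given in the sources used here, could not be checked. The authors deposited 1 signal per gene and library, called normalized counts. Divided by the smallest step of its library, each value came out whole (100% within a tolerance of 0.01 reads), and these quotients were taken as reads. Of 13646 lines, 118 shared 57 IDs and were summed. Symbols were matched by ID for 12888 IDs. Positions and exon lengths come from Ensembl's BDGP6.54 annotation by ID and need not be those of the authors' build.

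Log2 ratios were taken after adding 1.02, the value worth 1 CPM, and 8560 genes averaging 1 CPM or more entered. limma 3.58.1 (R 4.3.3, trended empirical Bayes, additive model of time and treatment, prior of 5.33 degrees of freedom) gave p-values adjusted by Benjamini-Hochberg over all genes. The count test of edgeR 4.0.16 on recovered reads, an alternative, called 26 genes for time and 5 for uracil. Both were also run on simulated counts in which genes were changed by uracil only. That run held no time effect, so it cannot check the time calls. Other alternatives changed the pseudocount, filter, fold rule, trend and scaling (column totals, DESeq2 1.42.0 size factors). Exact 95% intervals come from scipy 1.17.1. A total of 84 IDs share all their reads with another ID, none of them a Gst gene.

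Named genes are those 2-fold apart in any comparison, the highest per kb in each class, and the highest and lowest ratio of each class at each time. From the pathway lists, genes 2-fold apart between uracil and untreated guts were named. Other Gst genes, Gclc, Gclm, the Nrf2 and Keap1 list genes, Mgstl, imd, Fer1HCH, ninaE, Arr1 and Arr2 were named after their values were seen. The members, the 11 gene lists and the tests were chosen with earlier results of these data known. Of 160 list memberships 126 matched an ID, and the rest are not analysed here. The p-values measure only the spread between these libraries, which may be technical.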

Additional observations from a re-analysis of the deposited data

Results flagged for a closer look

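The uracil over untreated ratio of GstE10 lay on opposite sides at the 2 times. Its log2 ratio of uracil over untreated was 1.25 at 16 h and -1.12 at 2 h, a difference of 2.37. With a pseudocount worth 5 CPM the log2 ratios were 0.97 and -0.59, so that neither reached 2-fold. With 1 library per group the difference was not tested, and 17 reads stood behind the uracil 2 h value. The Malpighian tubule markers lay on the same sides in the same libraries, with medians of 1.23 at 16 h and -0.87 at 2 h, and their part in the GstE10 values was not tested.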

How the results depend on the processing

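The count of Gst genes 2-fold apart in either direction held within 1.5 times of its main value under another pseudocount, filter, scaling and the removal of IDs with identical reads, except at 2 h, where the count of 1 became 0 with a pseudocount worth 5 CPM and with a minimum mean of 10 CPM, which GstE10 does not reach. GstE10 also drops out at 16 h under both settings, leaving 2 of 3. Counted by direction, the 2 genes 2-fold higher at 16 h than at 2 h in uracil-treated guts became 1 and 0 under these settings. With a 1.5-fold rule the counts were 10 in place of 3 for uracil at 16 h (8 higher, 2 lower), 2 in place of 1 for uracil at 2 h, 16 in place of 5 for time in untreated guts and 17 in place of 7 for time in uracil-treated guts. The shared uracil test gave 0 members under every alternative run. The shared time test gave 3 members, 7 with no filter on low values (GstD1, GstE1, GstE7 and GstS1 added), 4 with scaling to the column total (GstD1 added), 2 with edgeR and 0 with limma without trend. The adjusted p over the alternatives ran from 0.00066 to 0.0821 for GstD10, from 0.000895 to 0.0821 for GstD9 and from 0.00314 to 0.109 for GstD8. Over all genes the time calls numbered 36, against 329 with no filter and 307 with column-total scaling, which moved the median log2 ratio of all genes for time in untreated guts from 0.04 to 0.18. Of 812 recomputed log2 ratios of the 30 measured genes, 790 moved by less than their counting error. None that was 2-fold apart changed side, and 7 others did (GstE6, GstE11, GstE12, GstT1 and GstT2), all under column-total scaling or DESeq2 size factors and none above 0.1145 in size. No replicate could be left out, since each group had 1 library. No paired analysis was possible because the groups share fewer than 2 replicate numbers, and the additive model pairs libraries only by time or treatment. Depth limits GstD2, GstD3, GstD4, GstD5, GstZ1, GstZ2 and GstE10 most.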
